A study of Homo sapiens with 9 samples.

Results

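The effect of DEGS1 siRNA in Huh7 cells was measured against a scramble siRNA on 6 of the 9 arrays of the series, 3 per group, chosen by their titles. Huh7 is an established human hepatocarcinoma cell line. The other 3 arrays come from Huh7 cells given siRNA against subunits of serine palmitoyltransferase (the group SPTLC123), and they enter the shared fit and 1 comparison. Cells of all groups were grown in medium with 10% serum and received 20 nM siRNA with a lipid reagent, and total RNA was hybridised to 1-colour Affymetrix expression arrays. By the sample labels the cells were taken at 72 h; by the protocol, conditioned medium (DMEM with 1% serum and BSA) was given to the cells at 72 h and kept on for 24 h more, so the time of harvest is not settled here. The labels call the replicates biological but name no separate cultures, so the p-values measure the spread between these samples. The model is 1 cell line, the labels do not say how many siRNA sequences targeted DEGS1, and no untransfected cells are among the groups used.

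DEGS1 is the sphingolipid desaturase that puts the double bond into dihydroceramide and so makes ceramide, the last step of ceramide synthesis from scratch. Serine palmitoyltransferase, whose subunits include SPTLC1 and SPTLC2, catalyses the first and rate-limiting step. Ceramide is then carried and converted to sphingomyelin or glucosylceramide, or broken down to sphingosine and sphingosine 1-phosphate. Loss of DEGS1 activity is known to let dihydroceramides build up. Lipids were not measured on these arrays.

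All levels below are log2 of the deposited intensity of 1 probe set per gene, and a difference of 1 is a 2-fold change. A gene was called where limma's moderated test, fitted over all 9 arrays and 19775 genes, gave a Benjamini-Hochberg adjusted p under 0.05. Array medians of the deposited values lay between 27.8 and 29.9. The 3′ minus 5′ signal of the actin control probe sets was 0.40 in DEGS1 replicate 1, 1.31 in replicate 2 and 1.25 in replicate 3, against 0.43 to 0.56 in the scramble arrays. DEGS1 replicates 2 and 3 and SPTLC123 replicate 3 (1.15) thus had weak 5′ signal, and calls are also given without those 3 arrays, which leaves DEGS1 replicate 1 alone against 3 scramble arrays and assumes that it varies like the other groups. Of 12 hepatocyte markers, 10 were measured, and all 10 were brighter than the median probe set (4.87), at mean levels of 11.21 to 14.31. Of these 10, 3 were called lower (TTR, APOH and AHSG) and 0 higher, against 5.04% of all genes called lower. With genes at or below that median left out and the fit repeated, 1077 of 12636 genes were called lower. TTR, APOH and AHSG each lost the call when DEGS1 replicate 2 or 3 was left out. The summed signal of the 10 ran from 91396 to 99458 in DEGS1 and from 102112 to 109121 in scramble arrays, with no overlap. Of 25 measured markers of other liver cell types, 12 lay above that median. LYZ (12.70 in scramble, 12.62 in DEGS1) and EPCAM (10.32 and 10.61) made up most of their summed signal, which ran from 8376 to 9168 in DEGS1 and from 8545 to 9542 in scramble arrays. Without those 2 genes the sums were 935 to 1090 and 1112 to 1189. SPP1 and CD14, both near that median, were called lower, and the part of these markers in the results was not tested. In bulk RNA fewer cells of a type and less RNA per cell cannot be told apart.

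The targeted transcript was low in each DEGS1 array. The level of DEGS1 was 5.19, 5.01 and 4.80 in DEGS1 replicates 1 to 3, and 8.84, 8.75 and 8.59 in scramble replicates 1 to 3. The groups did not overlap, and every DEGS1 array lay more than 3 log2 units below every scramble array. The difference was -3.73 ± 0.16 (SE, n = 3 per group; adjusted p = 7.3e-07), with 7.55% of the scramble signal left. A second DEGS1 probe set differed by -3.23, with 10.6% left. In the SPTLC123 arrays DEGS1 stood at 8.85, 8.73 and 8.25, and its difference from scramble was -0.12 (adjusted p = 0.73). DEGS2, the related desaturase that also makes phytoceramide, was dim at 4.84 ± 0.18 (SD) in scramble and 4.68 ± 0.11 in DEGS1 arrays, a difference of -0.16 that did not pass the test.

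Across all genes tested, 1918 were called (9.7%), 922 higher (4.66%) and 996 lower (5.04%), and 226 (1.14%) were called and changed at least 2-fold, 84 of them higher (0.425%) and 142 lower (0.718%). DEGS1 replicate 1, the array of normal 5′ signal, differed from the scramble mean in the same direction for all 1918, and it lay outside the range of the scramble arrays for 1911 of them; it is itself 1 of the 3 arrays behind the calls. The 2 groups did not overlap for 26.3% of all genes tested. The difference of replicate 1 was a median of 0.785 times the change over all 3 arrays. Once the 3 weak arrays were left out, 259 genes passed (1.31%), and 244 of these (1.23% of all genes) were also called over all arrays. Those 244 included 58 of the 84 genes that rose at least 2-fold and 65 of the 142 that fell at least 2-fold. With the actin 3′ minus 5′ signal as a covariate, 1114 genes were called (5.63%), among them 977 of the 1918. Leaving out DEGS1 replicate 1 gave 3614 called genes. Replicate 1 lay outside the scramble range, on the side of the change, for 71.3% of them, against 47.8% of all genes tested. The side was taken from the change over all 3 DEGS1 arrays, replicate 1 included, so these shares are no independent check. Leaving out another array of either group gave 801 (DEGS1 replicate 3) to 1387 (scramble replicate 1) called genes, and 696 of the 1918 kept their call in all 6 such fits. With genes at or below the median level of all probe sets left out and the fit repeated, 2095 of 12636 genes were called, 1018 higher and 1077 lower. Most gene lists below hold mainly genes above that level, whereas the shares over all genes tested include the dim ones. The plot of replicate 1 against replicates 2 and 3 shows the genes that changed at least 2-fold.

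**Figure D1:**
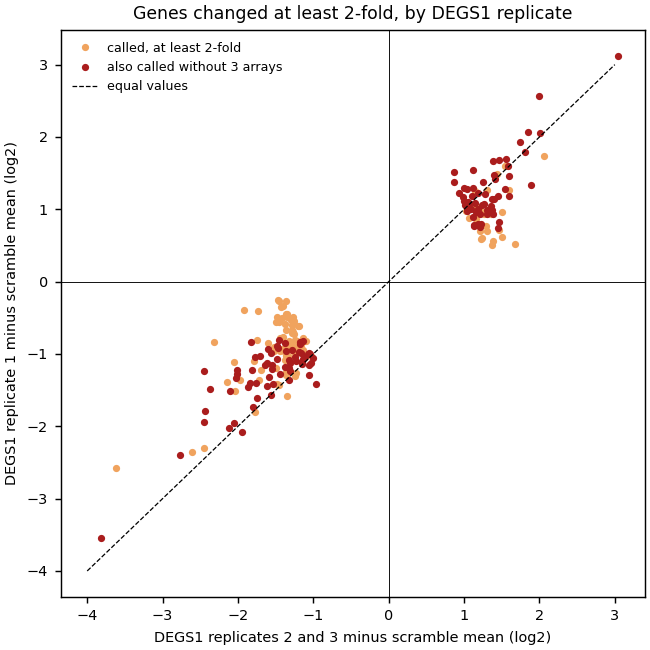
Each point is 1 of the 226 genes called and changed at least 2-fold, with the log2 difference of DEGS1 replicates 2 and 3 from the scramble mean on the x axis and that of replicate 1 on the y axis. All points share a sign on both axes, and many genes that fell lie above the dashed line of equal values, where replicate 1 changed less; dark points were also called without the 3 arrays of weak 5′ signal.

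**Figure D2:**
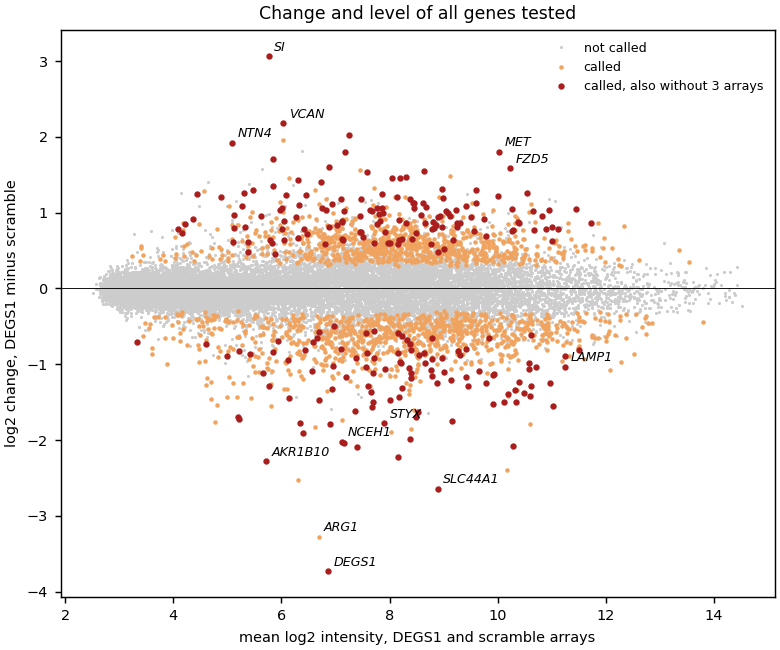
Log2 change (DEGS1 minus scramble, y axis) against the mean log2 intensity of the 6 arrays (x axis) for the 19775 genes tested, grey where not called, orange where called, dark red where also called without the 3 arrays of weak 5′ signal. SI and DEGS1 mark the upper and lower extremes, at 3.07 and -3.73.

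Some genes of sphingolipid synthesis were called apart from DEGS1 itself. DEGS1 is not counted in this list of 29 measured genes, of which 4 were called, all higher. Of the list 13.8% was called, against 9.7% of all genes. The median change was 0.07, against -0.01 over all genes tested. Of the 29 genes 25 lay above the median level, and with dim genes left out 2095 of 12636 genes were called. UGT8, which makes galactosylceramide, was at 8.51, 8.14 and 8.24 in DEGS1 arrays and at 7.30, 7.16 and 7.47 in scramble arrays. All 3 DEGS1 arrays lay above all scramble arrays, and UGT8 rose by 0.98 ± 0.13 (adjusted p = 0.0011); it was also called without the arrays of weak 5′ signal (adjusted p = 0.011). UGCG, which makes glucosylceramide, was at 9.31, 9.67 and 9.77 in DEGS1 arrays and at 9.03, 8.34 and 8.89 in scramble arrays, a rise of 0.83 ± 0.20 (adjusted p = 0.027) that both of its other probe sets shared. The groups did not overlap, but DEGS1 replicate 1 stood close to scramble replicate 1. CERT1, which carries ceramide from the endoplasmic reticulum to the Golgi, rose by 0.65 ± 0.18 with none of its 3 other probe sets called, and CPTP, which carries ceramide 1-phosphate, by 0.49 ± 0.13. UGCG, CERT1 and CPTP were not called without the arrays of weak 5′ signal (adjusted p = 0.38 to 0.44), and each lost its call when any of several arrays was left out, DEGS1 replicates 2 and 3 among them.

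On the probe sets used, the subunits of serine palmitoyltransferase and the ceramide synthases did not pass the test. SPTLC1 was at 10.93, 10.61 and 10.62 in DEGS1 arrays and 11.02, 10.83 and 10.98 in scramble arrays, a difference of -0.23 ± 0.11 (adjusted p = 0.25), and SPTLC2 differed by 0.19 ± 0.11 (adjusted p = 0.34). The SPTLC1 groups overlapped, since DEGS1 replicate 1 lay inside the scramble range. Of the 2 other SPTLC1 probe sets, 1 was called lower. Another SPTLC1 probe set split the DEGS1 arrays by their 5′ signal: it read 9.52 in DEGS1 replicate 1, inside the scramble range of 9.35 to 9.55, and 8.32 and 8.05 in replicates 2 and 3. CERS2, the main ceramide synthase of liver for very long acyl chains, differed by 0.15, CERS6, which prefers palmitoyl chains, by 0.25, and KDSR, the reductase that follows serine palmitoyltransferase, by -0.07. SGMS1, a sphingomyelin synthase, differed by -0.29. None of these passed the test against scramble.

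Among 29 measured genes of sphingolipid breakdown and sphingosine 1-phosphate, 1 was called higher and 3 lower. Of the list 13.8% was called, against 9.7% of all genes, and the median change was -0.07. Of the 29 genes 22 lay above the median level, and with dim genes left out 2095 of 12636 genes were called. SGPP1, the phosphatase that returns sphingosine 1-phosphate to sphingosine, was at 5.17, 5.12 and 5.08 in DEGS1 arrays and 6.27, 6.54 and 6.40 in scramble arrays. The DEGS1 arrays lay together more than 1 log2 unit below the scramble arrays, and SGPP1 fell by 1.28 ± 0.09 (adjusted p = 4.1e-05), also without the arrays of weak 5′ signal (adjusted p = 0.0079). It stood at 5.92, 5.95 and 5.81 in the SPTLC123 arrays, above DEGS1 and below scramble. PLPP1, a lipid phosphate phosphatase of the cell surface, fell by 0.45 ± 0.10. GALC, the lysosomal galactosylceramidase, fell by 0.80 ± 0.21, with DEGS1 replicate 1 at 8.62 near the scramble range of 8.77 to 8.94 and replicates 2 and 3 at 7.98 and 7.64. S1PR2, a sphingosine 1-phosphate receptor, rose by 0.38 ± 0.09. ASAH1 (acid ceramidase), SMPD1 (acid sphingomyelinase) and SGPL1 (the lyase that ends the pathway) differed by -0.07, -0.15 and 0.02 and did not pass the test. Of the 4 called genes of this list, only SGPP1 kept its call with each of the 6 arrays left out in turn.

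Genes of choline uptake and phospholipid synthesis changed in both directions. Of 30 measured, 5 rose and 4 fell (30.0% called, against 9.7% of all genes), and the median change was 0.04. Of the 30 genes 26 lay above the median level, and with dim genes left out 2095 of 12636 genes were called. SLC44A1, a choline transporter of the plasma membrane and mitochondria, was at 7.81, 7.33 and 7.55 in DEGS1 arrays, at 10.11, 10.49 and 10.02 in scramble arrays and at 9.68, 9.74 and 9.82 in SPTLC123 arrays. The DEGS1 arrays stood alone at the low end, and SLC44A1 fell by 2.64 ± 0.14 (6.24-fold; adjusted p = 4.4e-06). Of 5 other SLC44A1 probe sets, 3 were called lower as well and 1 was called higher. The related SLC44A3 rose by 0.86 ± 0.12 (9.00, 8.58 and 8.62 against 7.77, 7.81 and 8.05), and it was higher than in SPTLC123 by 0.94 (adjusted p = 0.00097). SLC44A5 rose by 0.87 ± 0.16, without a call when the arrays of weak 5′ signal were left out (adjusted p = 0.076).

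PTPMT1, the mitochondrial phosphatase of cardiolipin synthesis, was at 7.77, 7.59 and 7.66 in DEGS1 arrays and 5.99, 6.03 and 6.19 in scramble arrays, a rise of 1.60 ± 0.15 (adjusted p = 0.00014). CDS1, which makes CDP-diacylglycerol, rose by 1.25 ± 0.15. Both were also high in the SPTLC123 arrays, PTPMT1 at 7.73 to 8.33 and CDS1 at 9.07 to 9.24. CRLS1, the cardiolipin synthase, fell by 0.46 ± 0.12, CHPT1, a choline phosphotransferase, by 0.50 ± 0.11, and PEMT, which makes phosphatidylcholine by methylation, by 0.40 ± 0.11, while CHKB, a choline kinase, rose by 0.54 ± 0.14. These 4 calls were not made without the arrays of weak 5′ signal (adjusted p = 0.23 to 0.60), whereas SLC44A1, PTPMT1, CDS1 and SLC44A3 were called there.

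Genes that handle neutral lipids and cholesterol fell and rose side by side. NCEH1, a hydrolase of cholesteryl esters, was at 6.18, 5.97 and 6.20 in DEGS1 arrays, 8.10, 8.23 and 8.08 in scramble arrays and 8.19, 8.06 and 8.33 in SPTLC123 arrays. Only the DEGS1 arrays were low, and NCEH1 fell by 2.02 ± 0.10 (adjusted p = 3.8e-06). SOAT1, which makes cholesteryl esters, fell by 0.87 ± 0.11 (8.68, 8.33 and 8.31 against 9.37, 9.39 and 9.17). MGLL, the monoacylglycerol lipase, was at 7.70, 7.58 and 7.42 in DEGS1 arrays and 8.83, 8.92 and 8.91 in scramble arrays, with no overlap, and it fell by 1.32 ± 0.10 (adjusted p = 4.3e-05). DGAT2, which makes triglyceride, fell by 0.98 ± 0.13, and ACSL5, an acyl-CoA synthetase, by 1.45 ± 0.15. SLC27A2, an acyl-CoA synthetase of very long chains and fatty acid transporter, fell by 1.22 ± 0.18. It was the 1 called gene among 25 measured genes of fatty acid oxidation (4%, against 9.7% of all genes). MGLL, DGAT2, ACSL5 and NCEH1 were called without the arrays of weak 5′ signal, SOAT1 and SLC27A2 were not.

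In the list of triglycerides and lipid droplets, 4 of 28 measured genes rose and 3 fell (25.0% called, against 9.7% of all genes). LPIN1, a phosphatidate phosphatase, rose by 0.88 ± 0.20, but DEGS1 replicate 1 (8.80) stood nearer to the scramble arrays (8.21 to 8.57) than replicates 2 and 3 did (9.62 and 9.35). CIDEB, a lipid droplet protein of hepatocytes, rose by 0.61 ± 0.10 and AGPAT2, an acyltransferase, by 0.45 ± 0.09. In cholesterol synthesis and uptake, 4 of 26 rose and 1, SOAT1, fell (19.2% called). The 4 were LSS (lanosterol synthase, 0.88 ± 0.17), SCAP (the escort of SREBP, 0.53 ± 0.13), DHCR7 (0.49 ± 0.12) and TM7SF2 (0.46 ± 0.13), enzymes of the late pathway apart from SCAP. The 1 other DHCR7 probe set differed by -0.12 and was not called, and none of the 2 other LSS probe sets was called. INSIG1, a sensitive SREBP target, differed by 0.03. None of the list was called without the arrays of weak 5′ signal. The SREBP-binding letters TCACNCCAC, on either strand, were in 1 of the 23 list promoters that could be read, 4.35%, and in 0.875% of all promoters. In fatty acid synthesis, desaturation and elongation, 1 of 25 rose (ELOVL2, 0.31 ± 0.09, but -0.17 with the mean of its probe sets) and 3 fell (ACSL5, ELOVL6 and ACSL1).

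The 15 largest increases among genes above the median level were led by SI, sucrase-isomaltase, a brush-border enzyme of the small intestine. SI was at 7.35, 7.24 and 7.31 in DEGS1 arrays and 4.26, 4.07 and 4.37 in scramble arrays. The groups lay about 3 log2 units apart, and SI rose by 3.07 ± 0.10 (8.39-fold; adjusted p = 1.4e-07), although the scramble level is below the median of all probe sets and the size is therefore uncertain. In the SPTLC123 arrays SI stood at 7.28, 7.31 and 7.50, with DEGS1 minus SPTLC123 at -0.06 ± 0.10. The intestinal transcription factors CDX2 and ISX rose by 0.83 ± 0.10 and 0.68 ± 0.11, TFF3 by 0.46 ± 0.10 and VIL1 (villin) by 0.41 ± 0.10. TFF1, a trefoil peptide of the stomach, fell by 0.63 ± 0.16. These 6 were the called genes of 23 measured intestinal genes, whose median change was 0.03, and only SI was also called without the arrays of weak 5′ signal (CDX2, adjusted p = 0.072). Of the intestinal list 26.1% was called, against 9.7% of all genes, and 17 of the 23 genes lay above the median level. The SI promoter is shown because SI rose most of all genes and it is a known target of CDX2 and HNF1. The window is on the minus strand of GRCh38.p14 in RefSeq's annotation, chr3:165078522-165078682, from 186 to 26 bases before the start. Capitals mark 1 match of the HNF1 half-site letters GTTAAT (first run) and 1 of the CDX letters TTTATT (second run), both found here as the reverse complement. The 2 matches do not overlap.
SI: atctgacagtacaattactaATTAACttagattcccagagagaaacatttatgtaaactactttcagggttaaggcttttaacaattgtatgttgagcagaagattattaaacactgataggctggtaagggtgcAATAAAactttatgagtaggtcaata
Within 250 bases before the start, on either strand, GTTAAT was in 6.22% and TTTATT in 16.5% of all 27305 promoters. They were each in 5 of the 15 promoters of intestinal genes that could be read.

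VCAN, the matrix proteoglycan versican, was at 7.51, 7.25 and 6.61 in DEGS1 arrays and 5.04, 4.87 and 4.91 in scramble arrays. All DEGS1 arrays were higher, and VCAN rose by 2.18 ± 0.19 (4.54-fold; adjusted p = 8.3e-05), with 3 of 4 other probe sets also called higher. NTN4, the basement membrane protein netrin-4, rose by 1.92 ± 0.15 (6.19, 5.90 and 6.05 against 3.77, 4.22 and 4.38, a dim scramble level). COL12A1, a fibril-associated collagen, rose by 1.26 ± 0.14 from a dim scramble level and PCDH7, a protocadherin, by 1.80 ± 0.19. CCN2, a matrix protein and YAP and TAZ target, was at 10.24, 9.79 and 9.36 in DEGS1 arrays and 11.26, 11.28 and 11.00 in scramble arrays. It fell by 1.38 ± 0.25 (adjusted p = 0.0063), and ITGA1, a collagen-binding integrin, fell by 0.56 ± 0.09. WWTR1, which encodes TAZ, rose by 1.56 ± 0.20 (8.26, 8.16 and 8.28 against 6.24, 7.27 and 6.50), although none of its 2 other probe sets was called. Of 39 measured genes of matrix, proteoglycans and adhesion, 6 rose and 4 fell, with a median change of -0.15 (25.6% called, against 9.7% of all genes). VCAN, NTN4, PCDH7, COL12A1 and CCN2 were also called without the arrays of weak 5′ signal, and they kept their calls with each array left out.

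Receptors of growth factors and of Wnt proteins were among the genes that rose. MET, the receptor of hepatocyte growth factor, was at 11.06, 10.82 and 10.90 in DEGS1 arrays and 9.10, 9.22 and 9.04 in scramble arrays. The arrays within a group lay close together, and MET rose by 1.81 ± 0.09 (3.50-fold; adjusted p = 3.8e-06); 1 of 3 other MET probe sets was called higher too. The SPTLC123 arrays stood at 11.11 to 11.17. ERBB3 rose by 0.76 ± 0.15 and EGFR by 0.77 ± 0.19, and IGFBP3, a carrier of insulin-like growth factors, by 1.29 ± 0.16 (7.23, 7.22 and 7.33 against 6.21, 5.56 and 6.13) and stood higher still in SPTLC123 (9.17 to 9.55). FGFR1 fell by 0.56 ± 0.15 and SPRED1, an inhibitor of the Ras pathway, by 0.78 ± 0.18. Of the list of growth factor receptors and ligands 23.3% was called, against 9.7% of all genes. In all, 5 of 30 measured genes rose and 2 fell, and only MET was also called without the arrays of weak 5′ signal (ERBB3, EGFR and IGFBP3, adjusted p = 0.21, 0.30 and 0.064). The EGFR call was also lost without DEGS1 replicate 2 or 3 or scramble replicate 2 or 3, and none of its other probe sets was called.

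FZD5, a Wnt receptor, was at 11.03, 11.03 and 10.99 in DEGS1 arrays, 9.60, 9.20 and 9.49 in scramble arrays and 10.18, 9.95 and 10.15 in SPTLC123 arrays. The 3 groups did not overlap. FZD5 rose by 1.59 ± 0.11 against scramble (3.01-fold; adjusted p = 3.5e-05) and was 0.93 higher than in SPTLC123 (adjusted p = 0.00063). DKK1, a secreted Wnt inhibitor, rose by 0.78 ± 0.10, TNFRSF19, a Wnt target, by 1.09 ± 0.22 from a dim level (with the opposite sign, not called, in its 2 other probe sets) and AXIN1 by 0.41 ± 0.12, and FZD6 fell by 0.46 ± 0.10. These were the called genes of 24 measured in the Wnt list (20.8%, against 9.7% of all genes), whose median change was 0.05. FZD5, DKK1 and TNFRSF19 were called without the arrays of weak 5′ signal, AXIN1 and FZD6 were not. In insulin signalling and gluconeogenesis, 5 of 27 rose and 3 fell, none of them called without those arrays. Of the insulin list 29.6% was called, against 9.7% of all genes. PDPK1 (0.61 ± 0.10) and AKT1 (0.78 ± 0.14), kinases that act in sequence, rose and kept their calls with each array left out. None of the 5 other PDPK1 probe sets was called, and 3 of them shared its sign. RPTOR rose by 0.60 ± 0.14 and PC, pyruvate carboxylase, by 0.41 ± 0.11. IRS2, an adaptor of the insulin receptor, fell by 0.71 ± 0.20 and FOXO1 by 0.41 ± 0.10.

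Other large increases included LZTFL1, a regulator of transport into cilia (8.30, 8.27 and 8.23 against 5.94, 6.58 and 6.21, 2.02 ± 0.15), with none of 3 other probe sets called. RFX6, a transcription factor of gut and pancreas, rose by 1.96 ± 0.29, PIP4K2A, a phosphoinositide kinase, by 1.55 ± 0.10, and GPRC5B, an orphan receptor, by 1.54 ± 0.11. CIRBP, an RNA-binding protein known from cold stress, rose by 1.49 ± 0.19. FAM78B rose by 1.71 ± 0.17 and MEX3D by 1.48 ± 0.12, but both other MEX3D probe sets had the opposite sign and were not called. RFX6, WWTR1 and CIRBP were not called without the arrays of weak 5′ signal (adjusted p = 0.070 to 0.088). In the list of 23 measured liver transcription factors and nuclear receptors, 5 rose and 1 fell (26.1% called, against 9.7% of all genes). FOXA1 rose by 0.75 ± 0.12, RXRA by 0.73 ± 0.12, GATA6 by 0.62 ± 0.12 and CEBPD by 0.65 ± 0.15 beside RFX6, and NR1H3, the sterol sensor LXR alpha, fell by 0.84 ± 0.16 (8.29, 8.03 and 7.94 against 8.96, 8.98 and 8.84).

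**Figure D3:**
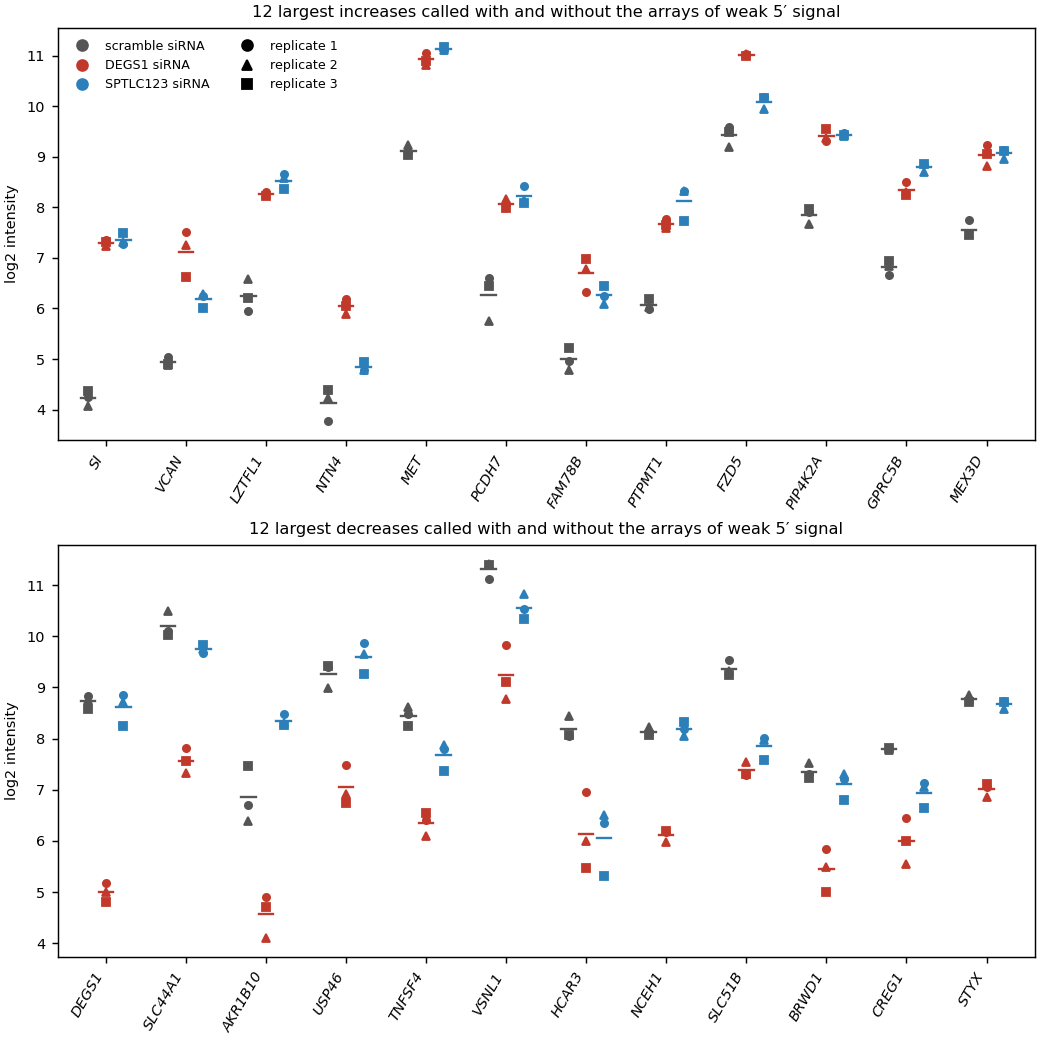
Log2 intensity per array (y axis) for the 12 largest increases (upper panel) and the 12 largest decreases (lower panel) that were called both over all arrays and without the 3 arrays of weak 5′ signal; colours are the groups, symbols the replicates and bars the group means. DEGS1 and scramble arrays do not overlap, which the choice of the largest called changes largely fixed, and the SPTLC123 arrays lie with DEGS1 for some genes (SI, MET) and with scramble for others (NCEH1, STYX).

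The largest decrease after DEGS1 was that of ARG1, the arginase of the urea cycle, at 5.75, 5.10 and 4.30 in DEGS1 arrays and 7.97, 9.37 and 7.64 in scramble arrays. The groups did not overlap, but both spread widely, with scramble replicate 2 far above the other scramble arrays. ARG1 fell by 3.27 ± 0.45 (9.68-fold; adjusted p = 0.0016) and was not called without the arrays of weak 5′ signal (adjusted p = 0.076), and none of its 3 other probe sets was called. SPX, the peptide hormone spexin, fell by 2.53 ± 0.35 (5.20, 4.83 and 5.08 against 6.69, 8.62 and 7.38), again with scramble replicate 2 highest. HAL, the histidine ammonia-lyase of liver, fell by 1.89 ± 0.27, and its range in SPTLC123 arrays (6.97 to 7.46) lay inside that of the DEGS1 arrays (6.79 to 7.59). Of 21 measured genes of the urea cycle and arginine metabolism, 2 were called lower and 1 higher (14.3%, against 9.7% of all genes). ARG1 and AZIN1, which guards polyamine synthesis, fell. GLUL, glutamine synthetase, rose by 0.53 ± 0.10 (12.25, 12.37 and 12.50 against 11.90, 11.85 and 11.79). None of the 3 other GLUL probe sets was called, and those at mean levels of 11.23 and 10.93 differed by 0.01 and -0.18.

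Several decreases were steep and tight. STYX, a catalytically inactive phosphatase, was at 7.05, 6.87 and 7.11 in DEGS1 arrays, 8.76, 8.86 and 8.73 in scramble arrays and 8.73, 8.58 and 8.71 in SPTLC123 arrays. Only the DEGS1 arrays were low, and STYX fell by 1.78 ± 0.10 (adjusted p = 4.4e-06), with all 3 other probe sets called lower as well. USP46, a deubiquitinase, fell by 2.22 ± 0.20 (7.48, 6.92 and 6.74 against 9.39, 8.99 and 9.41), and SLC51B, a subunit of the basolateral bile acid exporter, by 1.99 ± 0.13 (7.29, 7.54 and 7.30 against 9.54, 9.33 and 9.24). TNFSF4, the ligand of OX40, fell by 2.09 ± 0.16, VSNL1, a neuronal calcium sensor, by 2.07 ± 0.23 and CREG1, a lysosomal glycoprotein, by 1.79 ± 0.20. HCAR3, a receptor of hydroxylated fatty acids whose sequence is nearly that of HCAR2, fell by 2.04 ± 0.36, with DEGS1 arrays spread from 5.47 to 6.95. BRWD1 fell by 1.91 ± 0.20 on the probe set used, while none of its 7 other probe sets was called. Each gene of this paragraph was also called without the arrays of weak 5′ signal.

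The amino acid response is driven by the transcription factor ATF4 when amino acids are short. Of 32 measured genes of this list, 11 were called lower and 0 higher (34.4%, against 5.04% of all genes called lower), and the median change was -0.44. Of these 32 genes 30 lay above the median level, and with dim genes left out 1077 of 12636 genes were called lower. ASNS, asparagine synthetase, was at 9.69, 9.71 and 9.72 in DEGS1 arrays and 10.66, 12.46 and 11.36 in scramble arrays. The DEGS1 arrays lay together and the scramble arrays spread over nearly 2 log2 units; ASNS fell by 1.79 ± 0.33 (adjusted p = 0.0071). SLC3A2, the heavy chain of several amino acid transporters, was tighter, at 9.24, 9.11 and 9.12 against 9.79, 9.91 and 9.95, and fell by 0.73 ± 0.09 (adjusted p = 0.00082). Its SPTLC123 level, 9.74 to 9.86, lay near scramble. ASNS stood at 10.10, 10.13 and 10.35 in SPTLC123 arrays, between the DEGS1 and the scramble arrays. The transporters SLC7A1 (cationic amino acids, -1.15 ± 0.17), SLC7A11 (cystine, -1.25 ± 0.24), SLC1A4 (neutral amino acids, -0.71 ± 0.14) and SLC7A5 (large neutral amino acids, -0.62 ± 0.15) were called lower. So were CTH, which makes cysteine (-1.39 ± 0.31), and EIF4EBP1, a repressor of translation (-0.81 ± 0.19). ATF4 itself differed by -0.33, DDIT3 by -0.45, TRIB3 by -0.39 and CHAC1 by -1.40, and none of them passed the test. With SPTLC123 siRNA against scramble, 4 genes of the list were called lower and 0 higher, at a median change of -0.33. Between the knockdowns, 5 were called lower and 0 higher in DEGS1 arrays, at a median difference of -0.15.

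Scramble replicate 2 was the highest scramble array for 26 of the 32 genes (81.3%), against 38.3% of all genes tested and 55.1% of the genes called lower. Without it 8 genes of the list were called lower, with a median change of -0.33. The count was 14 without scramble replicate 1, 6 without scramble replicate 3, 6 without DEGS1 replicate 2, 5 without DEGS1 replicate 3 and 11 without DEGS1 replicate 1, where 2 genes were called higher. Without the arrays of weak 5′ signal 2 were called, SLC7A1 and SLC7A5, at a median change of -0.48. ASNS, SLC1A4, SLC3A2, SLC7A1 and SLC7A11 kept their calls with each of the 6 arrays left out. What sets scramble replicate 2 apart was not tested.

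The ASNS window holds the known amino acid response element and is shown because ASNS is the standard target of ATF4. It lies on the minus strand, chr7:97872449-97872496 (GRCh38.p14, RefSeq), 88 to 41 bases before the start. Capitals mark the match to the C/EBP-ATF letters TGATGNAA.
ASNS: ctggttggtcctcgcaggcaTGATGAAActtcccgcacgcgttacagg
These letters, on either strand, were in 4 of the 28 promoters of the list that could be read (14.3%), in 1 of the 8 promoters of its called genes and in 3.19% of all promoters.

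Of 24 measured genes of serine, glycine and one-carbon metabolism, 4 were called lower and 0 higher. This was 16.7%, against 5.04% of all genes called lower, and the median change was -0.10. Of the 24 genes 19 lay above the median level, and with dim genes left out 1077 of 12636 genes were called lower. MTHFD2, the mitochondrial folate enzyme, was at 10.35, 10.24 and 10.11 in DEGS1 arrays, 11.37, 12.13 and 11.87 in scramble arrays and 11.49, 11.42 and 11.47 in SPTLC123 arrays. The DEGS1 arrays lay more than 1 log2 unit below both other groups. MTHFD2 fell by 1.56 ± 0.16 (adjusted p = 0.00026), and its difference from SPTLC123 was -1.23 (adjusted p = 0.00091). PHGDH, PSAT1 and PSPH, the 3 enzymes that make serine, the substrate of serine palmitoyltransferase, fell by 0.59 ± 0.16, 0.62 ± 0.14 and 0.90 ± 0.20. For PSAT1, DEGS1 replicate 1 was at 11.93 and scramble replicate 1 at 12.18, with scramble replicate 2 highest at 12.80. Scramble replicate 2 was the highest scramble array for all 4 called genes. MTHFD2 alone kept its call with each array left out and without the arrays of weak 5′ signal (adjusted p = 0.037). Of 17 cytosolic tRNA synthetases, SARS1 (-0.96 ± 0.22) and YARS1 (-0.56 ± 0.13) were called lower (11.8%, against 5.04% of all genes called lower). Neither was called without DEGS1 replicate 2, without DEGS1 replicate 3 or without the arrays of weak 5′ signal. The median change of -0.30 over the 17 became -0.10 for DEGS1 replicate 1.

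**Figure D4:**
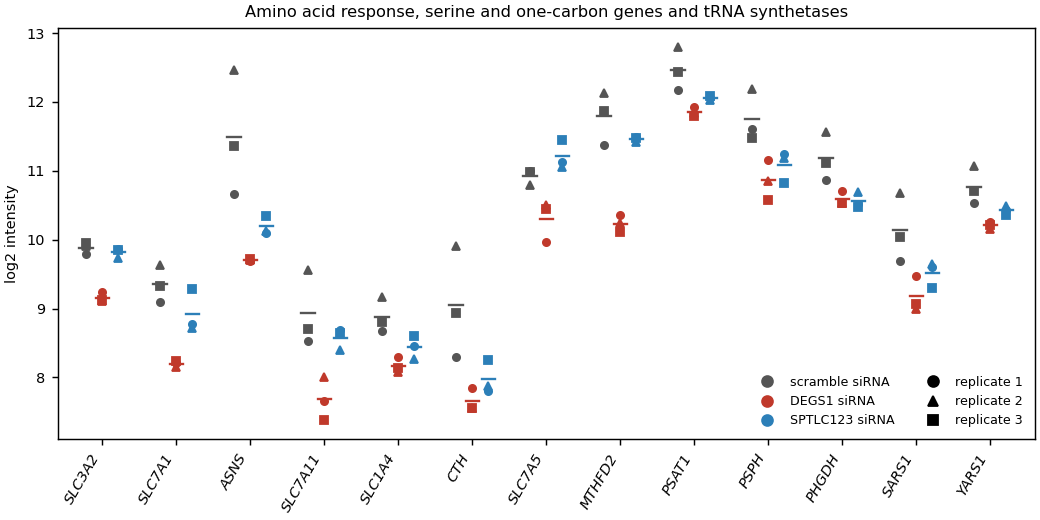
Log2 intensity per array (y axis) of 13 genes of the amino acid response, serine and one-carbon metabolism and tRNA charging; colours are the groups, symbols the replicates and bars the group means. All 13 were called lower, and scramble replicate 2 (grey triangle) is the highest scramble array for most of them, with SLC3A2 and SLC7A5 as exceptions.

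NRF2 is the factor of the oxidative stress response. Of 32 measured NRF2 targets, with glutathione genes and aldo-keto reductases, 9 were called lower and 0 higher. This was 28.1%, against 5.04% of all genes called lower, and the median change was -0.21. Of the 32 genes 31 lay above the median level, and with dim genes left out 1077 of 12636 genes were called lower. AKR1B10, an aldo-keto reductase that reduces retinal and lipid aldehydes, was at 4.91, 4.10 and 4.71 in DEGS1 arrays, 6.70, 6.40 and 7.46 in scramble arrays and 8.49, 8.31 and 8.26 in SPTLC123 arrays. The 3 groups did not overlap, with DEGS1 lowest and SPTLC123 highest. AKR1B10 fell by 2.28 ± 0.26 (adjusted p = 0.00045), to a dim level. AKR1C1 and AKR1C2, steroid reductases of nearly the same sequence whose probes may share signal, fell by 1.86 ± 0.23 and 1.56 ± 0.18. NQO1, a quinone reductase, fell by 0.65 ± 0.13 (11.81, 11.35 and 11.43 against 12.05, 12.22 and 12.26).

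GCLC and GCLM, the subunits of the enzyme that starts glutathione synthesis, fell by 0.66 ± 0.15 and 0.75 ± 0.18. In both, DEGS1 replicate 1 was nearest to scramble, as GCLM shows at 10.26, 9.46 and 9.67 against 10.60, 10.45 and 10.59. SRXN1 fell by 0.48 ± 0.12 and ME1, malic enzyme, by 0.44 ± 0.12, while HMOX1 (-0.18) and TXNRD1 (-0.26) did not pass the test. The 9 calls became 4 without DEGS1 replicate 2, DEGS1 replicate 3 or scramble replicate 3, 5 without scramble replicate 1 and 2 without the arrays of weak 5′ signal (AKR1B10 and AKR1C2). Without DEGS1 replicate 1 there were 10 lower and 3 higher. AKR1B10, AKR1C1, AKR1C2 and SLC7A11 kept their calls with each array left out. The ME1 call was lost with any 1 of the 6 arrays left out, and the GCLM call was kept only without DEGS1 replicate 1. GCLM, ME1 and, from the amino acid list, SLC3A2 were called lower over all arrays and hold the antioxidant response letters TGACNNNGC. For this reason their promoter windows are shown, with the letters in capitals, on the strand printed or, in GCLM, on the other. They lie at chr1:93909436-93909484 (minus strand), chr6:83431160-83431208 (minus strand) and chr11:62881642-62881690 (plus strand) of GRCh38.p14 in RefSeq's annotation.
GCLM: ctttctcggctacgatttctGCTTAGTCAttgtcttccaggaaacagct
ME1: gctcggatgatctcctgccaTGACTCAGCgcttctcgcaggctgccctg
SLC3A2: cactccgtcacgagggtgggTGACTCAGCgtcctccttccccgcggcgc
The letters were in 6 of 23 promoters of the NRF2 list that could be read (26.1%), in 2 of the 7 promoters of its called genes and in 11.0% of all promoters.

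Plasma proteins that hepatocytes secrete were lower in part. Of 41 measured, 11 were called lower and 0 higher (26.8%, against 5.04% of all genes called lower), and the median change was -0.21. Of the 41 genes 36 lay above the median level, and with dim genes left out 1077 of 12636 genes were called lower. ORM1, the acute-phase protein orosomucoid, was at 10.47, 10.21 and 10.34 in DEGS1 arrays and 11.65, 11.54 and 11.58 in scramble arrays. The groups lay more than 1 log2 unit apart, and ORM1 fell by 1.25 ± 0.10 (adjusted p = 5.8e-05). The haem carrier HPX fell by 0.98 ± 0.12 and the haemoglobin carrier HP by 1.02 ± 0.14, and these 3 genes were also called without the arrays of weak 5′ signal. SERPINC1 (antithrombin) fell by 1.33 ± 0.20, SERPINA6 (the cortisol carrier) by 0.81 ± 0.14 and APOM, which carries sphingosine 1-phosphate in plasma, by 0.98 ± 0.19. APOM was at 9.61, 9.36 and 9.26 in DEGS1 arrays and at 10.35, 10.80 and 10.01 in scramble arrays, and lower still in SPTLC123 (8.82 to 9.32). ALB differed by -0.12, AFP by -0.06, APOB by -0.07 and APOA1 by 0.22, none of which passed the test. Leaving out 1 array gave 7 (DEGS1 replicate 2 or 3) to 15 (DEGS1 replicate 1) called genes, and 7 of the 11 kept their calls throughout.

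Of 26 measured cytochromes P450 and glucuronosyltransferases, 4 were called lower and 0 higher (15.4%, against 5.04% of all genes called lower). They were UGT2B4 (-1.76 ± 0.26, to a dim level), CYP4F3 (-0.79 ± 0.17), UGT2B28 (-0.61 ± 0.17) and CYP4F2 (-0.56 ± 0.13). The UGT2B genes, and likewise CYP4F2 and CYP4F3, are close in sequence and their probes may share signal. CYP4F3, an omega-hydroxylase, was called without the arrays of weak 5′ signal, and the other 3 were not. UGT2B4 stood at 6.07 to 6.38 in SPTLC123 arrays, above the 3.53 to 4.30 of DEGS1 arrays.

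In the endoplasmic reticulum, 6 of 29 measured genes of folding and the unfolded protein response fell and 1 rose. Of the list 24.1% was called, against 9.7% of all genes, and the median change was -0.16. EDEM1, which sends misfolded glycoproteins to degradation, was at 8.44, 8.16 and 8.10 in DEGS1 arrays and 9.27, 9.48 and 9.17 in scramble arrays, and fell by 1.07 ± 0.12 (adjusted p = 0.00051). The groups did not overlap. DNAJB9 fell by 1.00 ± 0.17, the sensor kinase EIF2AK3 (PERK) by 0.82 ± 0.17, XBP1 by 0.69 ± 0.13, HSPA5 (the chaperone BiP) by 0.39 ± 0.09 and ERO1A by 0.37 ± 0.09. The 1 other probe set of XBP1 had the opposite sign. PDIA4, a protein disulphide isomerase, rose by 0.79 ± 0.09 (11.50, 11.55 and 11.47 against 10.77, 10.68 and 10.68). EDEM1 and PDIA4 were called without the arrays of weak 5′ signal. The HSPA5 call was lost without DEGS1 replicate 2 or 3 or scramble replicate 1 or 3. Windows of XBP1 and HSPA5, which fell, are shown for the ER stress element, whose letters, CCAAT, 9 free bases and CCACG, stand in capitals. Both are on the minus strand of GRCh38.p14 (RefSeq), at chr22:28800583-28800641 and chr9:125241371-125241429.
XBP1: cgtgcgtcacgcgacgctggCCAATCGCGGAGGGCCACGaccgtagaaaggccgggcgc
HSPA5: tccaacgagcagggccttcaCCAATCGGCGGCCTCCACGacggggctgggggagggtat
The element, on either strand, was in 7 of 26 promoters of the list that could be read and in 22 of all 27305 promoters (0.081%).

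In the lysosome and autophagy list, 5 of 30 measured genes fell and 3 rose. Of the list 26.7% was called, against 9.7% of all genes, and the median change was -0.14. LAMP1, a main glycoprotein of the lysosomal membrane, was at 10.76, 10.67 and 10.77 in DEGS1 arrays, 11.93, 11.53 and 11.83 in scramble arrays and 11.93, 12.01 and 12.19 in SPTLC123 arrays. Only the DEGS1 arrays were low. LAMP1 fell by 1.03 ± 0.12 (adjusted p = 0.00046), was called without the arrays of weak 5′ signal (adjusted p = 0.033) and differed from SPTLC123 by -1.31 (adjusted p = 7.9e-05). LAMP2 fell by 0.73 ± 0.11, the proteases CTSB and CTSL by 0.46 ± 0.08 and 0.54 ± 0.12, and GABARAPL2, an autophagosome protein, by 0.77 ± 0.21. NEU1, a sialidase, rose by 0.53 ± 0.09, the kinase ULK1, which starts autophagy, by 0.73 ± 0.17, and CTSA, the partner of NEU1, by 0.36 ± 0.10. Of the 8 called genes, CTSB, LAMP1, LAMP2 and NEU1 kept their calls with each array left out in turn. The CTSA call was lost without DEGS1 replicate 2 or 3 or any 1 scramble array. LAMP1 and CTSA are shown because they were called in opposite directions over all arrays and both hold the palindromic E-box letters TCACGTGA, in capitals. The windows are on the plus strand at chr13:113297190-113297237 and chr20:45891289-45891334 (GRCh38.p14, RefSeq).
LAMP1: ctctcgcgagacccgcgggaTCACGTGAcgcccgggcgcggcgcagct
CTSA: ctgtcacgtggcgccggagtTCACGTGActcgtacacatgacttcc
The letters were in 4 of 25 promoters of the list that could be read (16.0%) and in 0.89% of all promoters.

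Among 26 measured p53 targets and BCL2 family genes, 2 rose and 4 fell (23.1% called, against 9.7% of all genes). MCL1, which protects from apoptosis, was at 10.74, 10.89 and 10.78 in DEGS1 arrays and 9.93, 9.82 and 10.03 in scramble arrays, a rise of 0.88 ± 0.11 (adjusted p = 0.00092), and none of its 5 other probe sets was called. BAX, which promotes apoptosis, rose by 0.70 ± 0.13. PMAIP1 (NOXA) fell by 1.09 ± 0.24, BMF by 0.57 ± 0.13, GADD45B by 0.82 ± 0.15 and ZMAT3 by 0.81 ± 0.18. MCL1 and BMF were called without the arrays of weak 5′ signal, and CDKN1A differed by -0.18. Of 37 measured genes of DNA replication and the cell cycle, 3 rose and 1 fell (10.8% called, against 9.7% of all genes; median change -0.08). E2F2, a transcription factor of S phase entry, rose by 1.02 ± 0.13 (7.43, 7.74 and 7.85 against 6.69, 6.62 and 6.66), and E2F1 by 0.60 ± 0.14. CCNE1, cyclin E1, rose by 0.83 ± 0.13, and CDKN3 fell by 0.65 ± 0.18. DEGS1 replicate 1 stood nearest to scramble for all 4. The E2F1 call was lost without DEGS1 replicate 2 or 3 or scramble replicate 2 or 3. E2F1 and E2F2 are shown because both rose and hold the E2F letters TTTGGCGC, in capitals, on the minus strand at chr20:33686386-33686425 and chr1:23531248-23531295 (GRCh38.p14, RefSeq).
E2F1: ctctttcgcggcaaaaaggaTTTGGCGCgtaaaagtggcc
E2F2: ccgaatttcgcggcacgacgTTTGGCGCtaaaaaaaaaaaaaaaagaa
These letters, on either strand, were in 4 of the 29 promoters of the list that could be read (13.8%) and in 0.553% of all promoters.

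Genes of inflammation changed in both directions, with 3 of 28 measured higher and 4 lower (25.0% called, against 9.7% of all genes). S100P, a calcium-binding protein, was at 9.07, 9.16 and 8.70 in DEGS1 arrays and 10.55, 12.35 and 11.22 in scramble arrays. It fell by 2.40 ± 0.34 (adjusted p = 0.0018), with scramble replicate 2 highest. The chemokine CCL20 fell by 0.60 ± 0.15. TNFSF4 was also lower, and so was CXCL6, which was dim in both groups (3.24 to 3.34 in DEGS1, 3.80 to 3.86 in scramble arrays). CXCL3 rose by 0.91 ± 0.18, NFKBIA, the inhibitor of NF-kappaB, by 0.49 ± 0.10 and TNFAIP2 by 0.62 ± 0.13. Of these 7 genes only TNFSF4 was also called without the arrays of weak 5′ signal. Of 30 measured interferon response genes, IFIT1 and IFIT5 were called lower (6.67%, against 9.7% of all genes), IFIT1 to a dim level of 4.41 to 4.48. Of 34 measured genes of hypoxia and glycolysis 4 were called (11.8%), where NDRG1 rose by 0.56 ± 0.13 and LOX, PDK1 and PFKM fell by 0.65 ± 0.17, 0.92 ± 0.24 and 0.59 ± 0.13. None of these 6 kept its call with each array left out in turn. Of 10 reference genes, HPRT1 fell by 0.51 ± 0.09 and TFRC by 0.46 ± 0.10, while ACTB differed by 0.21 and GAPDH by -0.12.

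**Figure D5:**
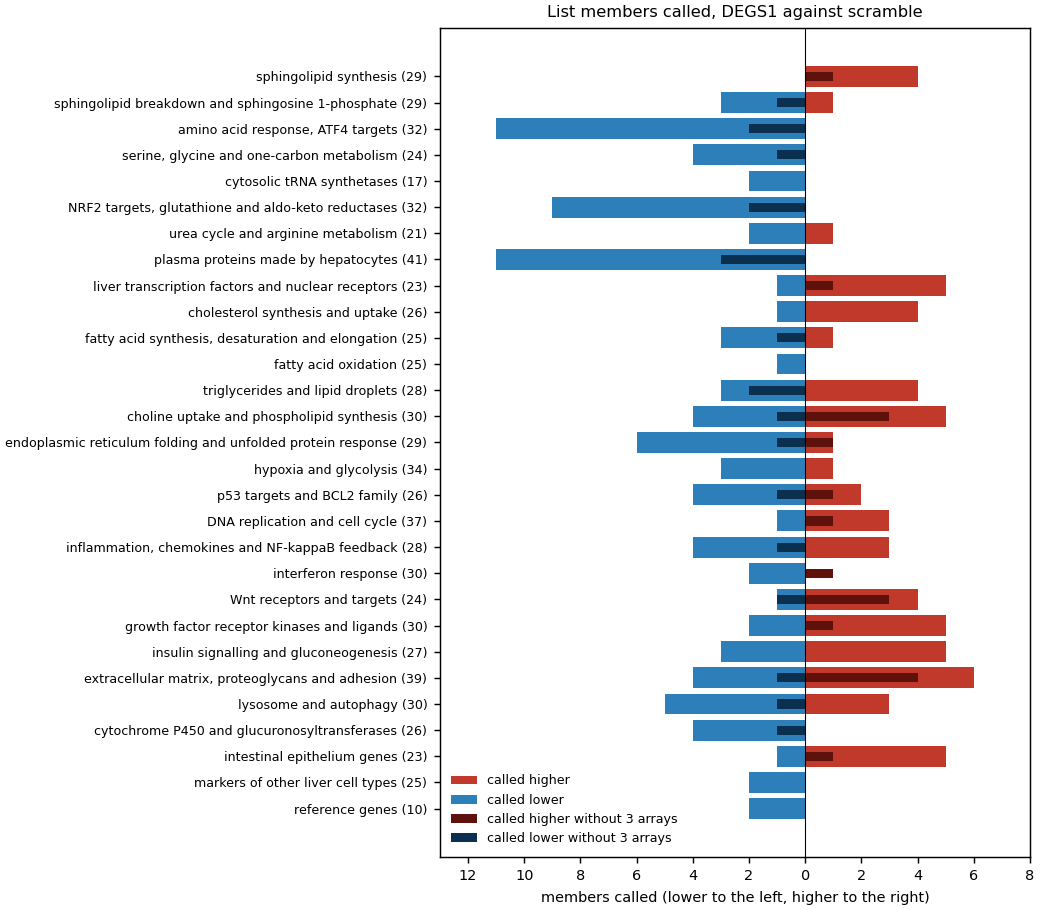
Members called lower (left) and higher (right) in DEGS1 against scramble arrays for each of 29 gene lists, with the number measured in brackets; wide bars are calls over all arrays and narrow bars calls without the 3 arrays of weak 5′ signal, which need not be the same genes. The lists of the amino acid response (11), plasma proteins (11) and NRF2 targets (9) have the most lower calls and no higher ones. Over all arrays, 4.66% of all genes tested were called higher and 5.04% lower.

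The direct comparison with SPTLC123 siRNA asks which genes differ between a block at the last step of ceramide synthesis and one at the first. It called 1713 of 19775 genes (8.66%), 732 higher (3.7%) and 981 lower (4.96%) in DEGS1 arrays, and it shares the DEGS1 arrays with the comparison above. Among genes that also rose against scramble, GABRB1, a GABA receptor subunit, was at 7.44, 7.23 and 7.64 in DEGS1 arrays, 5.78, 6.01 and 6.29 in scramble arrays and 5.79, 6.07 and 6.09 in SPTLC123 arrays. Scramble and SPTLC123 arrays lay together, and GABRB1 was 1.45 ± 0.15 higher in DEGS1 than in SPTLC123 arrays (adjusted p = 0.00020). Among genes that also fell, DEGS1 minus SPTLC123 was -2.55 for USP46 (adjusted p = 4.9e-05), -2.37 for UGT2B4, -2.19 for ARG1 and -2.18 for SLC44A1. CD276, RFLNB, ANKRD13C and ANXA3 were between 1.37 and 1.44 higher than in SPTLC123, but their rises against scramble were smaller, at 0.38, 0.57, 0.79 and 0.92. The call of CD276 against scramble was lost without DEGS1 replicate 2 or 3 or any 1 scramble array, and those of RFLNB and ANXA3 without DEGS1 replicate 2 or 3.

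The targeted subunits check the SPTLC123 labels: SPTLC1 was 2.04 and SPTLC2 1.24 higher in DEGS1 than in SPTLC123 arrays. Other sphingolipid genes also differed between the 2 knockdowns. CERS2 was 1.67 higher, GLTP, the glycolipid transfer protein, 0.93 higher and SGPL1 0.78 higher in DEGS1 arrays, while the difference was -0.77 for SGPP1, -0.66 for SGMS1 and -1.02 for SPHK1, which makes sphingosine 1-phosphate. UGT8 and UGCG differed by -0.15 and -0.01 between the knockdowns (SE 0.13 and 0.20), which did not pass the test. In the NRF2 list, DEGS1 minus SPTLC123 was -1.03 for ME1 and -1.06 for GCLC, both called.

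SPTLC123 siRNA against scramble called 9.94% of genes, 5.31% higher and 4.63% lower. It shares the scramble arrays with the DEGS1 comparison, and 37 genes (0.187%) were called in opposite directions in the 2. HEPACAM2, an adhesion protein, was at 6.84, 6.32 and 6.32 in DEGS1 arrays, 5.38, 5.57 and 5.44 in scramble arrays and 4.71, 4.88 and 3.99 in SPTLC123 arrays, so that the scramble arrays lay between the knockdowns. GJA1, the gap junction protein connexin 43, was at 9.40, 9.03 and 9.05, 9.90, 9.76 and 10.09, and 10.60, 10.59 and 10.53 in the same order of groups, with DEGS1 lowest. NKIRAS1, which restrains NF-kappaB signalling, was at 7.16, 6.85 and 6.93, 7.64, 7.70 and 7.74, and 8.86, 8.56 and 8.37. AKR1B10, CLIC2 and ENTPD7 also fell with DEGS1 siRNA and rose with SPTLC123 siRNA.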

How the data were processed

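The authors deposited 1 table of linear intensities for 54675 probe sets and 9 arrays. The submitters' processing notes name RMA, GCRMA 2.12.1 and limma 2.14.7 without role or order. Which of RMA and GCRMA made the values is not settled here, so the size of changes at low signal is uncertain. Values ran from 4.88 to 27330.59, and array number limits the precision. The log2 of each value was taken with no further normalization. Of 54613 probe sets without controls, 41091 carried 1 gene symbol in the platform annotation, 1801 several and 11721 none here; 41037 matched RefSeq by gene number. The probe set of highest mean level stood for each of 19775 genes, 10523 of which had several. limma 3.58.1 in R 4.3.3 (with statmod 1.5.0 for array weights) fitted all 9 arrays with 3 group terms and 6 residual degrees of freedom, with Benjamini-Hochberg adjustment; it was tested on simulated data.

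Members and gene lists were chosen with earlier results of these data known. The genes named were DEGS1, DEGS2, SPTLC1 and SPTLC2; the 15 largest called changes each way above the median level with groups that did not overlap; the 12 largest each way also called without the 3 arrays of weak 5′ signal; up to 5 called genes per list by adjusted p; 6 each way that differed most from SPTLC123; and 6 called in opposite directions. Other list members are given as members. Promoters came from RefSeq (GRCh38.p14): 15384 of 19775 genes tested and 668 of 878 list genes had one, and the 250 bases before the start were searched. A match describes letters and no binding. Alternatives changed the choice of probe set, dim genes, normalization, variance model, arrays, covariates and threshold. Whether replicate numbers pair the arrays is not settled, and the main fit did not pair them.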

Additional observations from a re-analysis of the deposited data

Results flagged for a closer look

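For 6 genes the change with DEGS1 siRNA differed from the change with SPTLC123 siRNA by the direct test between the knockdowns, with opposite calls against the shared scramble arrays. DEGS1 minus SPTLC123 was -3.78 ± 0.26 (SE) for AKR1B10 (adjusted p = 1.2e-05, limma), 1.97 ± 0.21 for HEPACAM2 (0.00028), -1.72 ± 0.20 for ENTPD7 (0.00040), -1.62 ± 0.13 for NKIRAS1 (4.9e-05), -1.53 ± 0.15 for CLIC2 (0.00017) and -1.42 ± 0.12 for GJA1 (6.1e-05). Without the 3 arrays of weak 5′ signal, AKR1B10 and HEPACAM2 were also called against scramble, and the other 4 were not.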

How the results depend on the processing

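Against scramble, the 1918 called genes became 4263 with array weights, 692 at an adjusted p under 0.01, 1114 with the actin 3′ minus 5′ covariate and 259 without the 3 arrays of weak 5′ signal; leaving out 1 array gave 801 to 3614. The 226 genes called and changed at least 2-fold became 385 of 41091 probe sets tested singly, 128 where probe sets of a gene were averaged, 372 with array weights and 119 without those 3 arrays; leaving out 1 array gave 175 to 495. Against SPTLC123, the 1713 called genes became 3999 with array weights, 717 at an adjusted p under 0.01 and 281 without those 3 arrays; leaving out 1 array gave 841 to 2911. Array weights set DEGS1 replicate 1 at 0.433 and replicates 2 and 3 at 1.48 and 1.33. Quantile normalization, median centring, another variance model, the mean of probe sets, leaving out dim genes and fitting 2 groups only gave between 1339 and 2095 calls against scramble. With the replicate number as a block 2168 genes were called, 1791 of them shared. Deviations of same-numbered DEGS1 and scramble arrays correlated at -0.27, -0.09 and 0.03. DEGS1 replicates 2 and 3 differ from replicate 1 in 5′ signal, which enters these deviations. The values therefore do not settle whether the numbers pair the arrays. ELOVL2 changed sign with the mean of its probe sets (-0.17). With 3 arrays per group, and 1 DEGS1 array of normal 5′ signal, small changes and those of dim genes are measured least well; other causes of these differences were not tested.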
